A study of Mus musculus with 8 samples.

Results

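The 10 genes described here encode secreted proteins of the extracellular matrix that act on cells or on the assembly of fibres. They are Sparc, Thbs1, Thbs2, Postn, Fn1, Fbln2 and Mfap5, and the small leucine-rich proteoglycans Bgn, Dcn and Lum. They were chosen by symbol, with earlier results of these data known. All 10 symbols were found among the 23420 gene lines of a count table. A filter on low counts left 9 of them among 13167 tested genes, and Lum did not pass it.

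The libraries came from C2C12, an established line of mouse myoblasts, which fuse into myotubes when serum is withdrawn. The cells overexpressed AUF1, an RNA-binding protein encoded by Hnrnpd that acts on AU-rich mRNAs, or were WT. Both kinds of cell were grown in medium with 10% FBS and then kept for 48 h in medium with 2% HS to start differentiation. RNA was total, or came from the heavy polysomes, the mRNAs that carry many ribosomes, so that 4 groups resulted: AUF1 total, WT total, AUF1 polysome and WT polysome. Each group has 2 libraries, numbered 1 and 2 in the titles. The labels do not say what a number marks, whether the cultures behind libraries 1 and 2 were separate, whether the WT cells carried an empty vector, or whether the AUF1 line was a pool or 1 clone. The p-values therefore rest on library-to-library spread alone, and that may be technical. Whether the total and polysome RNA of a genotype and number came from the same culture is not given either. The models treat all libraries as independent, so the p-values may be too small.

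A library held 25281224 to 34917660 counts in genes. The lowest count of a tested member was 35, for Dcn in AUF1 total replicate 2. Hnrnpd stood at 448.3 and 396.8 CPM in AUF1 total RNA, against 64.2 and 99.6 CPM in WT total RNA, where CPM is the count relative to the TMM-corrected library size. All 12 myoblast and muscle markers were detected in every library, with a summed level of 19087 to 27444 CPM in AUF1 libraries and of 3920 to 5415 CPM in WT libraries. The differences between number 1 and number 2 were alike in the 4 groups (Pearson r across 11724 genes of 0.658 to 0.888, genes not being independent replicates). Each change with genotype is therefore given within a number as well as over the group. In these bulk samples fewer cells that make a transcript and less of it per cell cannot be told apart.

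Matricellular proteins are secreted into the matrix but serve mainly to tune how cells attach to it and respond to growth factors, rather than as its scaffold. Small leucine-rich proteoglycans sit on collagen fibrils, set their spacing and bind TGF-beta. In muscle much of both kinds comes from fibroblasts, and myoblasts in culture make many of them as well.

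AUF1 binds AU-rich elements, so the 3′ untranslated regions of the members were searched on the sense strand for the pentamer ATTTA and for the longer TATTTAT, overlapping matches included, in 1 GENCODE M21 transcript a gene (GRCm38, mm10). The sites shown are those of the members with a TATTTAT, with the motif in capitals, leaving out Thbs1 site 3, at the very end of its transcript, and Thbs2 site 5, which overlaps site 4. Thbs2 had 5, Thbs1 had 3 and Fn1 had 1, and the other 7 members had 0. The share of 11949 tested genes with at least 1 TATTTAT was 30.4%.
Thbs1 site 1, chr2:118126031-118126059, plus strand: acaatgtaataTATTTATtttgttcccct
Thbs1 site 2, chr2:118126155-118126183, plus strand: taaatacagatTATTTATtaaccctgttc
Thbs2 site 1, chr17:14667165-14667193, minus strand: attacttgcagTATTTATgtgtatatgga
Thbs2 site 2, chr17:14666463-14666491, minus strand: tcttttgttaaTATTTATtaaatgatttg
Thbs2 site 3, chr17:14665682-14665710, minus strand: tttttgtaaatTATTTATgtagttttttt
Thbs2 site 4, chr17:14665597-14665625, minus strand: aagattgtaaaTATTTATttatttgttca
Fn1 site 1, chr1:71585680-71585708, minus strand: tacctgtttgtTATTTATcaatttttccc

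For the pentamer, Thbs2 had 10 copies (4.97 per kb), Thbs1 had 6 (2.85 per kb), Lum had 4 (6.14 per kb) and Fn1 had 3 (4.34 per kb). The median of the 11949 genes was 2 copies (1.30 per kb). Sparc, Bgn and Postn had 1 copy each. Dcn, Mfap5 and Fbln2 had 0. Dcn and Mfap5, the members that differed most between the genotypes, thus had neither motif in these transcripts, and Fbln2, which differed least, had neither as well. Thbs2 and Thbs1, with the most copies of TATTTAT, were also at least 2-fold lower in AUF1 cells within both numbers in both fractions. A link between motif copies and the change with genotype was not tested. A match describes letters in a transcript and does not show that AUF1 binds there.

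Per kilobase of exon, Sparc and Thbs1 were among the most abundant transcripts of the cells. In AUF1 total RNA, the group mean was 650 CPM per kb for Sparc, 343 for Thbs1, 281 for Bgn, 160 for Fn1, 64.3 for Fbln2, 6.28 for Postn, 4.39 for Thbs2, 3.39 for Mfap5 and 0.372 for Dcn. In WT total RNA, the mean was 1292 CPM per kb for Sparc, 823 for Thbs1, 464 for Bgn, 185 for Fn1, 56.5 for Fbln2, 51.9 for Mfap5, 16.9 for Postn, 11.1 for Thbs2 and 5.31 for Dcn. These means put Sparc at rank 38 of 12356 genes in AUF1 total RNA, against rank 8 in WT total RNA, and Thbs1 at rank 94 in AUF1, against rank 16 in WT. Mfap5 stood at rank 7868 in AUF1 total RNA, against rank 985 in WT total RNA.

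The order of neighbours in level was not firm, since the 2 libraries of a group differed widely. The SD of Sparc was 771 CPM per kb in AUF1 total RNA and 1579 in WT total RNA (n = 2 each), more than its mean in both genotypes. The interval of 1 SD around the mean of Sparc covered those of Thbs1, Bgn and Fn1 in AUF1 total RNA. In WT total RNA the SD intervals of Fbln2, Mfap5, Postn, Thbs2 and Dcn overlapped. Thbs1, with an SD of 36.4 CPM per kb in AUF1 and 257 in WT total RNA, was the steadiest of the 4 most abundant members in total RNA.

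**Figure D1:**
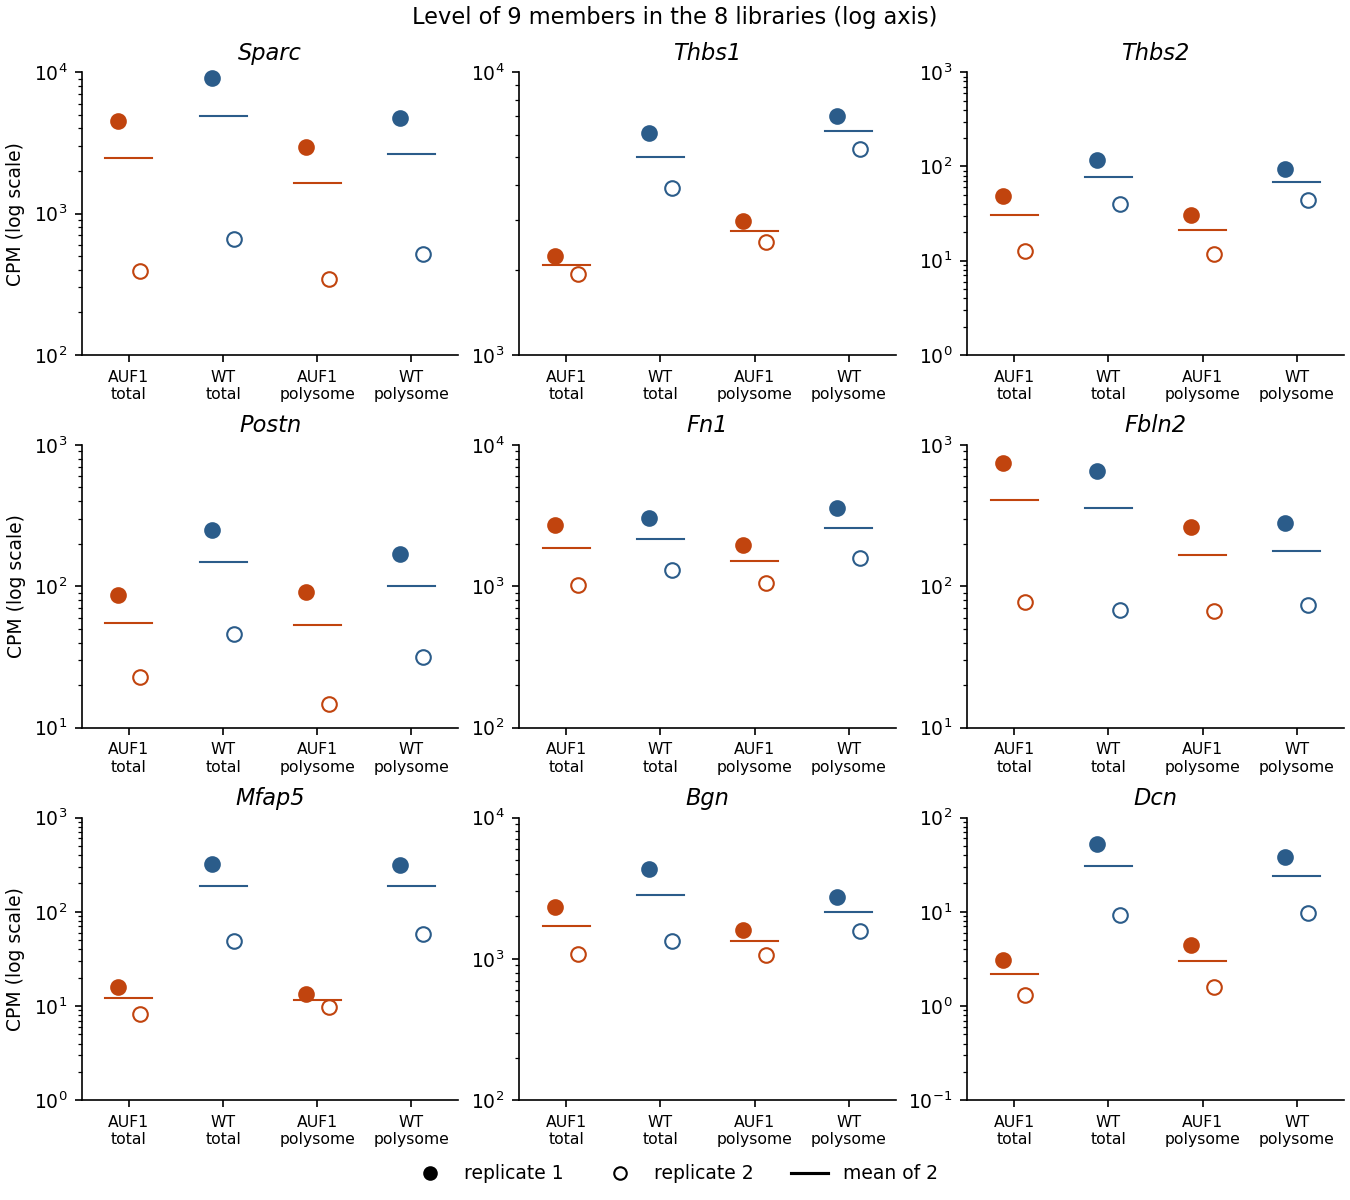
CPM on a log axis of the 9 tested members in the 8 libraries (filled points, replicate 1; open points, replicate 2; lines, mean of 2; AUF1 orange, WT blue). Dcn, Mfap5 and Thbs1 lie lower in both AUF1 libraries than in both WT libraries of the same fraction, and the replicate 1 point of Sparc and Fbln2 lies far above the replicate 2 point in every group.

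Decorin and microfibril-associated protein 5 showed the widest gap between the genotypes. Dcn (chr10:97479609-97518143, plus strand), whose proteoglycan decorin wraps collagen fibrils and binds TGF-beta, was at 3.05 and 1.30 CPM in AUF1 total RNA, against 52.7 and 9.27 CPM in WT total RNA. On polysomes it was at 4.41 and 1.59 CPM in AUF1, against 37.8 and 9.78 CPM in WT. All AUF1 libraries were below all WT libraries, and replicate 1 was the higher library in each group. The log2 fold change (AUF1 over WT, ± SE) of Dcn was -3.83 ± 1.15 in total RNA, with within-number changes of -4.08 and -2.78, and -2.98 ± 1.10 on polysomes, with -3.08 and -2.57.

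Mfap5 (chr6:122505845-122529290, plus strand) encodes a glycoprotein of the fibrillin microfibrils. It was at 16.0 and 8.33 CPM in AUF1 total RNA, against 323.4 and 49.4 CPM in WT total RNA. On polysomes it was at 13.5 and 9.88 CPM in AUF1, against 315.6 and 57.9 CPM in WT. The AUF1 libraries again lay below all WT libraries, and the gap was wider in number 1. The log2 fold change was -3.94 ± 1.15 in total RNA (-4.33 and -2.56 within the numbers) and -4.00 ± 1.16 on polysomes (-4.54 and -2.54).

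The thrombospondins were lower in AUF1 cells within both numbers and in both fractions. Thbs1 (chr2:118111876-118127133, plus strand), a trimeric glycoprotein that activates latent TGF-beta and inhibits angiogenesis, was at 2242 and 1929 CPM in AUF1 total RNA, against 6099 and 3895 CPM in WT total RNA. On polysomes Thbs1 was at 2987 and 2501 CPM in AUF1, against 6986 and 5372 CPM in WT. The groups did not overlap in either fraction. Its log2 fold change was -1.26 ± 0.30 in total RNA (-1.44 and -1.01 within the numbers) and -1.17 ± 0.30 on polysomes (-1.23 and -1.10). Exons of the antisense gene Gm29233 overlap 208 bases of Thbs1, and no strand setting for the counting is stated.

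Thbs2 (chr17:14665500-14694235, minus strand), which shares the anti-angiogenic role but does not activate TGF-beta, was at 48.8 and 12.6 CPM in AUF1 total RNA, against 115.8 and 39.9 CPM in WT total RNA. On polysomes Thbs2 was at 30.3 and 11.7 CPM in AUF1, against 93.3 and 44.1 CPM in WT. The genotypes overlapped in total RNA, where AUF1 replicate 1 exceeded WT replicate 2, and did not on polysomes. The within-number changes were -1.25 and -1.65 in total RNA and -1.62 and -1.91 on polysomes.

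Postn and Sparc were also lower in AUF1 cells within both numbers, and for both the difference between the numbers exceeded that between the genotypes. Postn (chr3:54361109-54391037, plus strand) encodes periostin, an integrin ligand that helps collagen cross-linking. It was at 86.4 and 22.9 CPM in AUF1 total RNA, against 248.9 and 45.8 CPM in WT total RNA, and at 90.8 and 14.8 CPM on AUF1 polysomes, against 167.9 and 31.5 CPM on WT polysomes. Within the numbers this was -1.53 and -0.999 on the log2 scale in total RNA and -0.89 and -1.09 on polysomes.

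Sparc (chr11:55394500-55423183, minus strand) encodes osteonectin, a collagen-binding glycoprotein that loosens cell attachment. Its level was 4526 and 394.3 CPM in AUF1 total RNA, against 9124 and 663.9 CPM in WT total RNA. On polysomes its level was 2940 and 347.1 CPM in AUF1, against 4722 and 515.4 CPM in WT. Both replicate 1 libraries of AUF1 cells exceeded both replicate 2 libraries of WT cells, so the groups overlapped. Within the numbers Sparc differed by -1.01 and -0.75 on the log2 scale in total RNA and by -0.68 and -0.57 on polysomes.

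In total RNA Bgn, Fn1 and Fbln2 differed least. Bgn (chrX:73483602-73495933, plus strand) encodes biglycan, a proteoglycan close to decorin in structure. It was at 2341 and 1084 CPM in AUF1 total RNA, against 4326 and 1329 CPM in WT total RNA, with within-number changes of -0.89 and -0.29. On polysomes it was at 1614 and 1074 CPM in AUF1, against 2724 and 1581 CPM in WT (-0.76 and -0.56).

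Fn1 (chr1:71585520-71653200, minus strand) encodes fibronectin, which binds integrins and lays the first matrix on which collagen fibrils assemble. It was at 2710 and 1020 CPM in AUF1 total RNA, against 3036 and 1293 CPM in WT total RNA, and at 1969 and 1055 CPM on AUF1 polysomes, against 3570 and 1594 CPM on WT polysomes. Its within-number changes were -0.16 and -0.34 in total RNA and -0.86 and -0.60 on polysomes. Exons of Apol7d on the other strand overlap 292 bases of Fn1.

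Fbln2 (chr6:91212455-91272540, plus strand) encodes fibulin-2, which bridges fibronectin, proteoglycans and elastic fibres. It was at 742 and 77.6 CPM in AUF1 total RNA, against 651.1 and 68.4 CPM in WT total RNA. On polysomes Fbln2 was at 264.7 and 67.2 CPM in AUF1, against 282.3 and 74.0 CPM in WT. The genotypes interleaved in both fractions. The within-number changes were 0.19 and 0.18 in total RNA and -0.09 and -0.14 on polysomes.

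**Figure D2:**
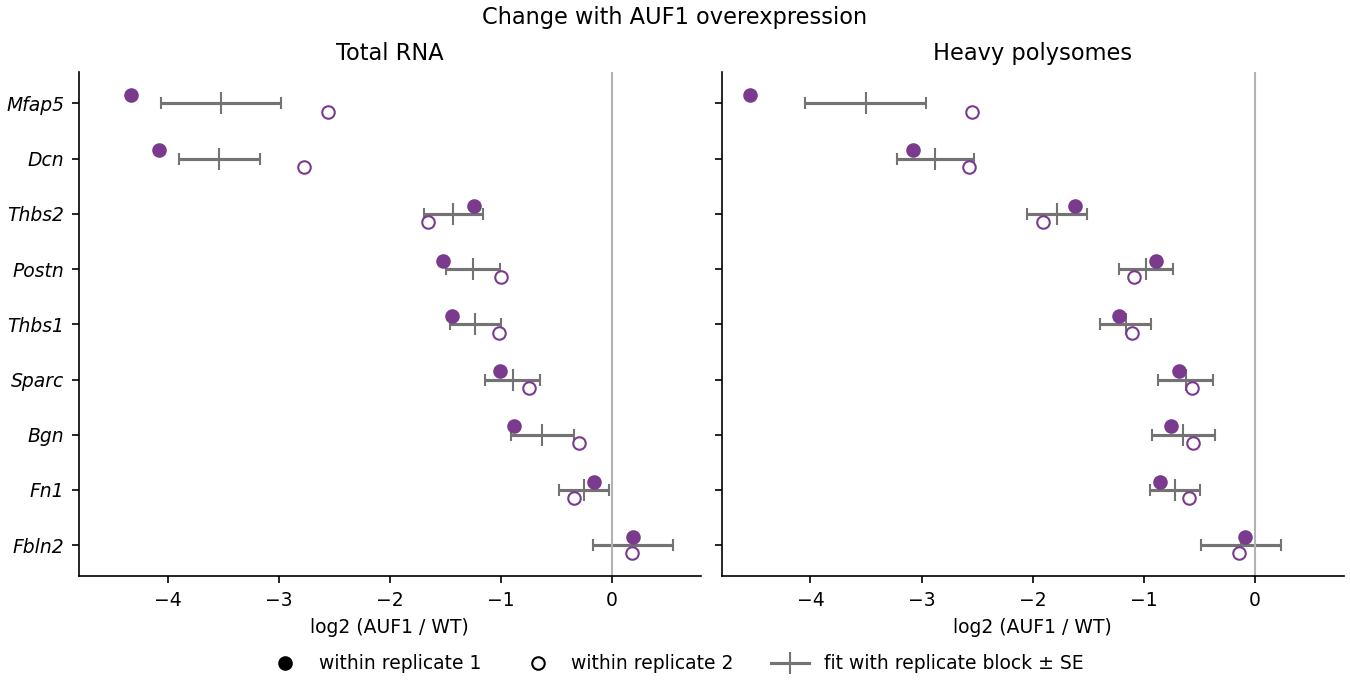
Log2 change (AUF1 over WT) of each member within replicate 1 (filled) and replicate 2 (open), with the estimate of the edgeR model that has the replicate number as a block and its SE (grey), in total RNA (left) and on heavy polysomes (right). Mfap5 and Dcn lie at -2.54 or below in every pair, and Fbln2 lies closest to 0.

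The planned edgeR quasi-likelihood model, with 1 coefficient per group and no term for the replicate number, called 0 of the 9 tested members in total RNA at a Benjamini-Hochberg adjusted p under 0.05, where 1.02% of all tested genes were called. The smallest adjusted p was 0.134 for Thbs1, followed by 0.199 for Mfap5 and 0.208 for Dcn. At an unadjusted p under 0.05 the model had 3 members (Dcn, Mfap5 and Thbs1), all lower in AUF1 cells, where 5.55% of all tested genes were lower at that p. DESeq2 without a block called the same 3, where it called 2.75% of all tested genes lower. With the replicate number as a block, edgeR called 6 members, all lower in AUF1 cells, where 6.15% of all tested genes were called lower. Their adjusted p was 0.000511 for Dcn, 0.00315 for Mfap5, 0.00806 for Thbs2, 0.00816 for Thbs1, 0.00969 for Postn and 0.044 for Sparc. Bgn (0.191), Fn1 (0.514) and Fbln2 (0.775) were not called. The blocked model called 2 members, Dcn and Mfap5, without WT total replicate 1, where 0.994% of genes were called lower, and the same 2 without WT total replicate 2, where 2.09% were. Sparc was called in 4 of the 8 blocked fits that left out 1 library.

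On polysomes the planned edgeR model called 0 of 9 members, where 0.349% of all tested genes were called. The smallest adjusted p values were 0.155 for Thbs1, 0.201 for Mfap5 and 0.294 for Dcn, and the same 3 members had an unadjusted p under 0.05, where 6.3% of all tested genes were lower at that p. DESeq2 without a block called these 3, where it called 2.86% of genes lower. With the block edgeR called 5 members, all lower in AUF1 cells, where 6.33% of all tested genes were called lower. Their adjusted p was 0.00112 for Dcn, 0.00307 for Thbs2, 0.00348 for Mfap5, 0.0107 for Thbs1 and 0.0269 for Postn. Fn1 (0.0658), Sparc (0.133), Bgn (0.177) and Fbln2 (0.873) were not called. When each of the 8 libraries was left out in turn, the blocked model called Dcn, Thbs2 and Mfap5 in 8 of 8 fits, Thbs1 in 6 and Postn in 2, those without an AUF1 total library. Without AUF1 polysome replicate 1 it called 3 members, Dcn, Mfap5 and Thbs2, where 1.43% of genes were called lower. Without AUF1 total replicate 1 it called 8 of these 9 members, all but Fbln2, and the share of all genes called lower was then 13%.

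Counted without a model, 8 of 9 members were lower in AUF1 total RNA within both numbers, Fbln2 being the exception, where 38.4% of all tested genes were. On polysomes 9 of 9 were, where 40.5% of genes were. Dcn, Mfap5, Thbs1 and Thbs2 were at least 2-fold lower within both numbers in both fractions, where 5.08% of genes were in total RNA and 5.63% on polysomes. Groups did not overlap, with AUF1 lower, for 3 members in total RNA (17.8% of genes) and for 4 on polysomes (21.3% of genes). The median log2 change of the 9 members was -1.26 in total RNA and -0.92 on polysomes, beside 0.00 over all tested genes in both. Since the members were chosen with earlier results of these data known, setting them beside all genes is a description and not a test.

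For 5 of the 9 members, Sparc, Fbln2, Postn, Fn1 and Bgn, the difference between number 1 and number 2 was larger than that between the genotypes. The share of all tested genes for which this held was not counted, so it is not read as particular to the members. Sparc was 11.5-fold higher in replicate 1 than in replicate 2 of AUF1 total RNA, 13.7-fold in WT total RNA, 8.47-fold on AUF1 polysomes and 9.16-fold on WT polysomes. In the blocked edgeR model this was a log2 difference of 3.39 ± 0.19 (SE, adjusted p = 2.79e-06). Fbln2 was 9.56-fold and 9.52-fold higher in replicate 1 of AUF1 and WT total RNA, and 3.94-fold and 3.81-fold on AUF1 and WT polysomes. Postn was 3.78-fold to 6.14-fold higher in replicate 1 across the groups.

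The number difference, as log2 replicate 1 over replicate 2, was 2.60 ± 0.27 for Fbln2, 2.35 ± 0.18 for Postn, 1.84 ± 0.24 for Dcn, 1.67 ± 0.37 for Mfap5, 1.48 ± 0.19 for Thbs2, 1.18 ± 0.16 for Fn1 and 1.04 ± 0.21 for Bgn. With Sparc these made 8 of 9 members called higher in replicate 1, where 20.8% of all tested genes were, and 0 were called lower. Thbs1, at 0.37 ± 0.16 (adjusted p = 0.110), was not called. Sparc, Fbln2, Postn, Dcn and Thbs2 were at least 2-fold higher in replicate 1 in all 4 groups, where 11.5% of genes were. What the numbers stand for is not given, so the difference is described here and not attributed.

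For Mfap5 the number difference itself was uneven between the genotypes. It was 0.94 in AUF1 total RNA and 0.44 on AUF1 polysomes, against 2.71 in WT total RNA and 2.45 on WT polysomes, on the log2 scale. For Dcn it was also smaller in AUF1, at 1.19 in total RNA and 1.44 on polysomes, against 2.50 and 1.94 in WT. Bgn, Thbs1 and Sparc went the same way by less in both fractions. Thbs2 and Fbln2 went the other way, and Fn1 and Postn were mixed. These differences of differences were not tested.

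**Figure D3:**
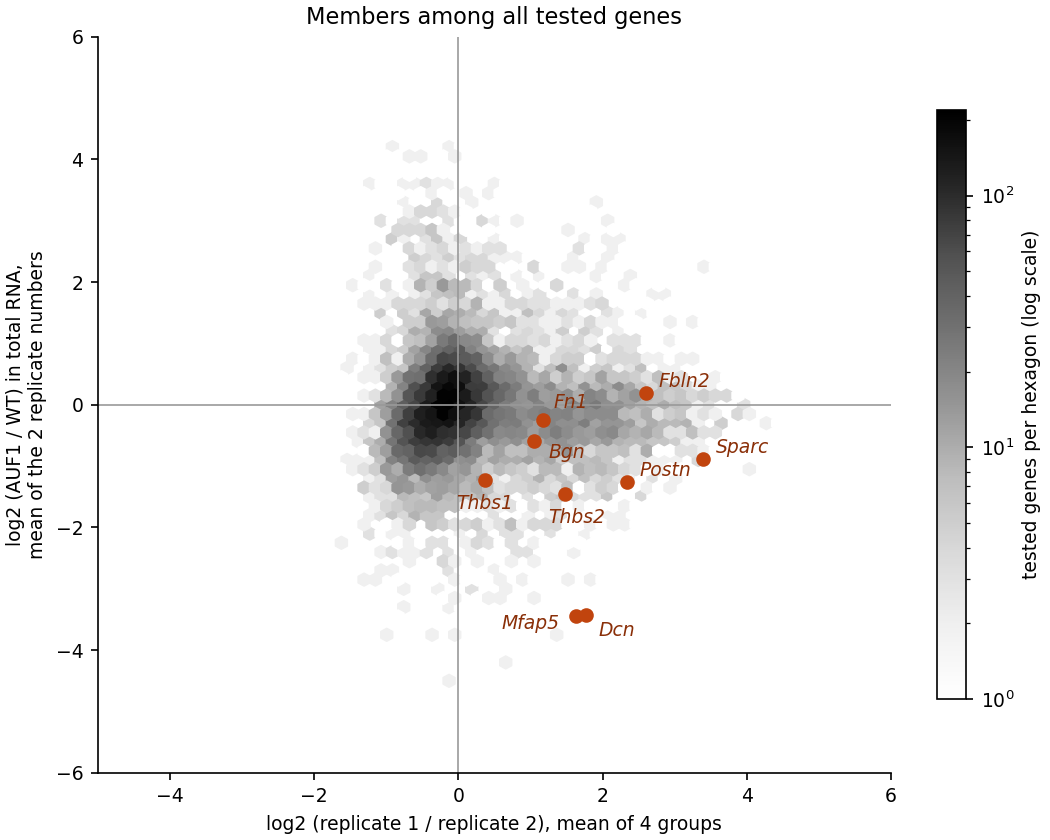
Each tested gene by its log2 difference between replicate 1 and replicate 2 (mean of 4 groups, horizontal) and its log2 change with AUF1 in total RNA (mean of the 2 numbers, vertical), as hexagons shaded by gene number, with the 9 members as points. The members all lie to the right of 0, Sparc farthest, and Dcn and Mfap5 lie lowest.

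Splitting the sum of squares of log2 CPM over the 8 libraries sets the factors side by side. Genotype took 82.6% for Thbs1, 77.2% for Mfap5, 73.8% for Dcn and 52.1% for Thbs2, and the replicate number took 8.11%, 16.9%, 23.6% and 44.3% for the same genes. For Bgn genotype took 22.6% and the number 63.6%, for Postn 18.02% and 78.3%, and for Fn1 14.0% and 80.7%. Sparc had 4.56% with genotype and 92.4% with the number. Fbln2 had 0.0153% with genotype and 87.9% with the number. Over all tested genes the medians were 20.2% for genotype, 21.5% for the number and 6.37% for the RNA fraction. The fraction took at most 7.57% for any tested member, in Thbs1.

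**Figure D4:**
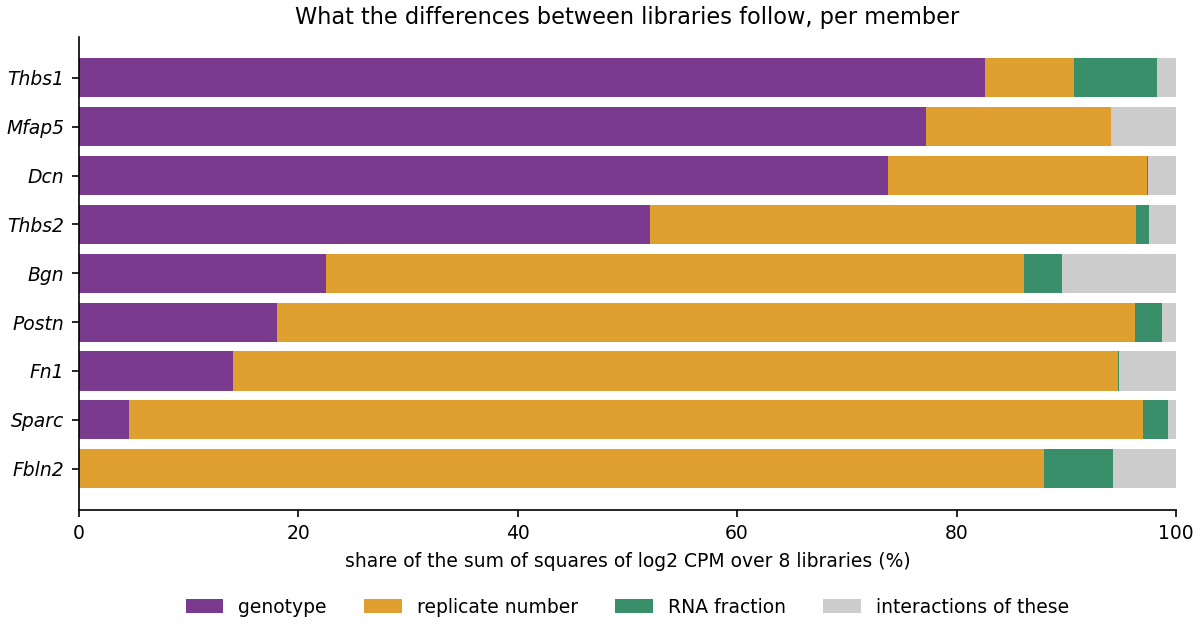
Share of the sum of squares of log2 CPM over 8 libraries, in percent, that follows genotype, replicate number, RNA fraction or their interactions, for the 9 tested members. Thbs1, Mfap5 and Dcn follow genotype most, and Sparc, Fbln2, Fn1 and Postn follow the replicate number.

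The comparison of heavy polysome RNA with total RNA asks whether a transcript is loaded with ribosomes in proportion to its level. In AUF1 cells the edgeR model without the block called 0 of 9 members, and 0 of all tested genes. In WT cells it also called 0 members and 0 genes. At an unadjusted p under 0.05 it had 0 members in either genotype. DESeq2 called 0 members in either, with or without the block. Without the block DESeq2 called 0.22% of all tested genes lower on polysomes in AUF1 cells and 0.228% in WT cells. With the block these shares were 1.39% and 1.2%. With the block edgeR called 0 members in either genotype, where 0.0152% of all genes were called in each. At an unadjusted p under 0.05 the blocked edgeR model had Fbln2 in AUF1 cells and Postn and Sparc in WT cells, all lower on polysomes. The share of all tested genes at that unadjusted p was not counted for either model.

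Thbs1 was the member that was higher on polysomes within both numbers in both genotypes, by 0.41 and 0.37 on the log2 scale in AUF1 cells and by 0.20 and 0.46 in WT cells. Its polysome and total libraries did not overlap in AUF1 cells, where 8.86% of all genes were so placed with polysomes higher, and overlapped in WT cells. As 1 of 9 tested members so placed, it was near that share. In the planned edgeR model the unadjusted p of Thbs1 was 0.226 in AUF1 cells and 0.337 in WT cells, so its fractions were not shown to differ. Fn1 was higher on polysomes within both numbers in WT cells (0.23 and 0.30) and not in AUF1 cells (-0.46 and 0.05). Sparc was lower on polysomes within both numbers, with log2 differences of -0.62 and -0.18 in AUF1 cells and of -0.95 and -0.37 in WT cells. Fbln2 was lower on polysomes in number 1, at -1.49 in AUF1 and -1.21 in WT cells, and near even in number 2, at -0.21 in AUF1 and 0.11 in WT cells.

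The interaction of genotype and fraction, which asks whether the AUF1 change on polysomes differed from that in total RNA, ran from -0.56 ± 0.96 for Fn1 to 0.85 ± 1.46 for Dcn (log2, SE). Neither edgeR model called a member or any other gene for it. Among the members 0 had an unadjusted p under 0.05 in either model, and DESeq2 called 0. The SE of this term had a median over all genes of 0.60 without the block and 0.40 with it. Among the members it ran from 0.42 for Thbs1 to 2.46 for Sparc without the block. With the block it ran from 0.32 for Fn1 to 0.69 for Mfap5. A difference in ribosome loading of the size of a member's own SE on the log2 scale lay within the error.

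**Figure D5:**
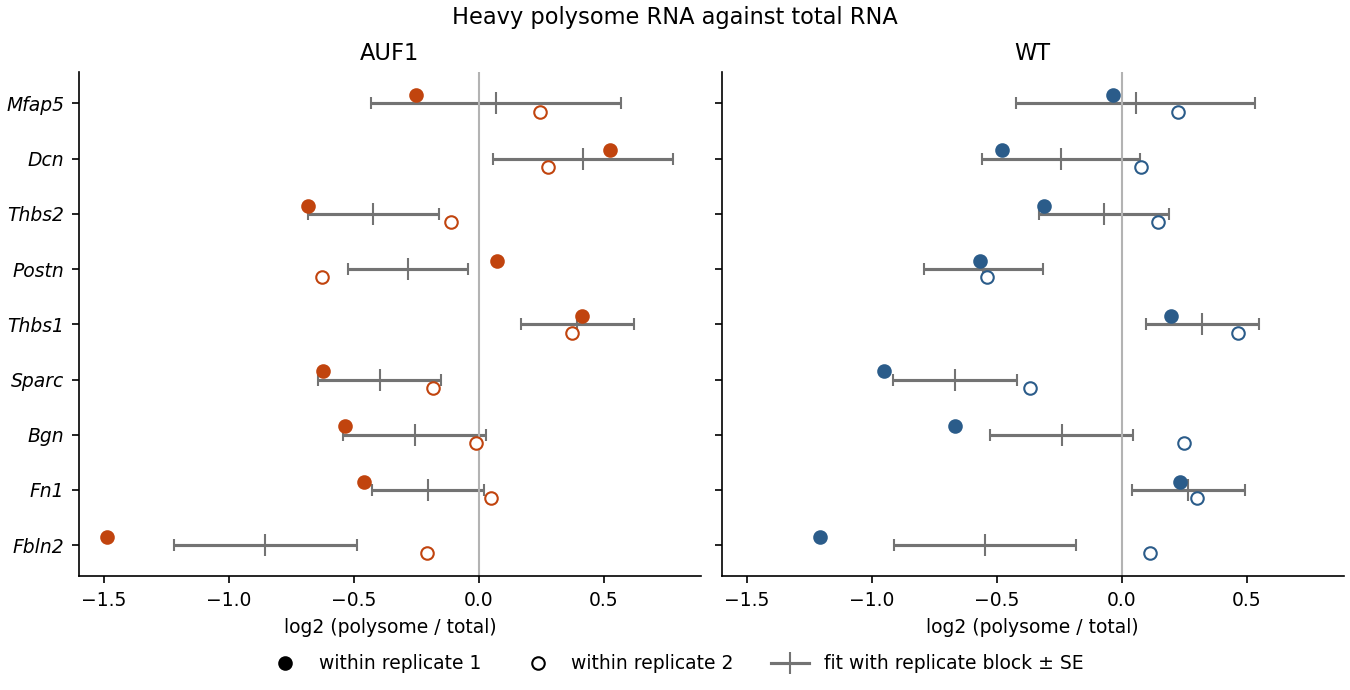
Log2 difference between heavy polysome and total RNA of each member within replicate 1 (filled) and replicate 2 (open), with the estimate of the edgeR model that has the replicate number as a block and its SE (grey), in AUF1 cells (left) and WT cells (right). Thbs1 lies right of 0 in all 4 pairs, and Fbln2 lies far left in replicate 1 of both genotypes.

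Lum (chr10:97565128-97572703, plus strand) encodes lumican, which keeps collagen fibrils thin. It lies 46984 bases from Dcn with 0 protein-coding genes between. No count was found in 6 of the 8 libraries, namely both libraries of AUF1 total, AUF1 polysome and WT total RNA. Where its count was 0, a level of up to 0.0932 to 0.122 CPM per library is allowed by 3 counts. It had 113 counts (3.21 CPM) in WT polysome replicate 1 and 2 counts (0.0635 CPM) in WT polysome replicate 2. The WT polysome replicate 1 library also had the most detected genes, 15713 against 14466 to 15199 in the others. It held 22 genes with at least 50 counts that had at most 3 in each of the other 7 libraries, while each other library held 0 such genes. Tgfbi, another matricellular gene, had 502 counts in that library and 1 to 7 in the others. The Lum count is therefore a value of 1 library and not of WT polysomes, and the part of that library's extra genes in it was not tested.

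Over the 8 libraries, genes whose pattern was most like that of a member were sought by Pearson's r on log2 CPM among 9653 genes whose mean log2 CPM reached 3. For Sparc these were Pofut1, Rcn3, Arsa, Shisa5 and Gusb (r of 0.997 to 0.995), for Dcn Lphn2, Gpr137b-ps, Mettl7a1, Fzd1 and Nsg1 (0.991 to 0.988). For Thbs1 they were Eva1a, P4ha3, Fbxl20, Osbpl1a and Adamtsl3 (0.998 to 0.979), and for Fn1 Slc25a25, Cpt1c, Nlgn2, Ndst2 and BC018242 (0.994 to 0.987). The 8 points share a cell line but differ in genotype, RNA fraction and replicate number, so r also holds the differences between these. The replicate number took 92.4% of the sum of squares for Sparc and 80.7% for Fn1. Genotype took 73.8% for Dcn and 82.6% for Thbs1.

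Other genes of the same families were read from lists. For the counts of every list below, the blocked model called 6.15% of all tested genes lower in AUF1 total RNA. In replicate 1, 20.8% of all tested genes were called higher. Of 13 tested matricellular genes outside the 10, the planned edgeR model called 0 in total RNA and the blocked model called 5 lower in AUF1 cells and 0 higher. Smoc2, a calcium-binding relative of Sparc, was at 2.45 and 0.814 CPM in AUF1 total RNA, against 25.5 and 2.14 CPM in WT (adjusted p in edgeR with the block 0.0204, without it 0.373). Wisp1, a CCN family member, was at 339.7 and 358.6 CPM in AUF1 total RNA, against 843.5 and 576.4 CPM in WT (0.0484 with the block, 0.374 without). The median log2 change of the 13 was -0.86. By number, 11 of the 13 were called higher in replicate 1, among them Spp1, which encodes osteopontin (3.15 ± 0.19), and Fstl1 (2.93 ± 0.19).

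Of 11 tested small leucine-rich proteoglycans outside the 10, the planned model called 0 in total RNA and the blocked model 3 lower and 0 higher (Fmod, Omd and Prelp). Fmod, which encodes the collagen-binding fibromodulin, was at 3.82 and 0.888 CPM in AUF1 total RNA, against 35.7 and 3.58 CPM in WT (0.00377 with the block, 0.389 without). Omd, which encodes osteomodulin, was at 0.0701 and 0.074 CPM in AUF1 total RNA, against 3.69 and 1.30 CPM in WT (0.00108 with the block, 0.0958 without), so its AUF1 level was within the counting floor. Tsku, at 28.8 and 8.26 CPM in AUF1 total RNA, against 45.9 and 12.2 CPM in WT, was 1 of 8 called higher in replicate 1 (1.81 ± 0.17). Kera, Epyc and Chad had 0 counts in all 8 libraries.

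Of 17 tested fibulin and microfibril genes outside the 10, the planned model called 0 in total RNA, and the blocked model called 6 lower and 0 higher, with a median log2 change of -0.96. Mfap2, a microfibril partner of Mfap5, was at 0.42 and 0.222 CPM in AUF1 total RNA, against 7.57 and 0.702 CPM in WT (0.0171 with the block, 0.320 without). Emilin1, an elastic fibre glycoprotein, was at 3.47 and 2.37 CPM in AUF1 total RNA, against 12.5 and 4.53 CPM in WT (0.0389 with the block, 0.314 without). Eln was at or under 0.0701 CPM in AUF1 total RNA, within the counting floor. Fbln1, a paralog of Fbln2, had the clearest number difference of the list, at 3.34 ± 0.27.

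Of 17 tested receptors of these proteins, the blocked model called 3 lower (Sdc2, Sdc3 and Tlr2) and 1 higher in AUF1 total RNA, and the planned model called 0. The higher one was Cd36, a receptor of thrombospondin-1, at 7.08 and 2.41 CPM in AUF1 total RNA, against 0.648 and 0.492 CPM in WT (0.00258 with the block, 0.183 without). Tlr2, which biglycan can engage, was at 7.60 and 2.55 CPM in AUF1 total RNA, against 39.6 and 8.96 CPM in WT (0.00152 with the block, 0.404 without). By number 16 of the 17 were called higher in replicate 1, with 3.98 ± 0.16 for the syndecan Sdc3 and 2.94 ± 0.18 for the integrin Itgb5.

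Of 20 tested enzymes that build or process the chains and cores, the planned model called 0 and the blocked model 2 lower (Dse and Dsel, epimerases that make dermatan sulfate) and 1 higher. The higher one was Adamts1, a protease, at 86.7 and 132.9 CPM in AUF1 total RNA, against 56.5 and 63.2 CPM in WT (0.0383 with the block, 0.245 without). Htra1 (3.35 ± 0.23) and Xylt2 (2.41 ± 0.18) were among 15 of the 20 called higher in replicate 1. Of 14 TGF-beta genes the planned model called 0 and the blocked model 3 lower (Lrrc32, Tgfb2 and Tgfbr2) and 0 higher. Tgfbr2, a TGF-beta receptor, was at 349.2 and 89.0 CPM in AUF1 total RNA, against 1030 and 217.7 CPM in WT (0.00268 with the block, 0.663 without).

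Fibroblasts make most of these proteins in tissue, so their markers were set beside the members. The 10 tested markers were all lower in AUF1 than in WT libraries within both numbers in both fractions. Of all tested genes 38.4% were lower within both numbers in total RNA and 40.5% on polysomes. The planned model called 0 of the markers in either fraction. The summed level of the 15 markers outside the 10 genes was 4268 and 1256 CPM in AUF1 total RNA, against 9862 and 2324 CPM in WT total RNA. On polysomes it was 2521 and 1387 CPM in AUF1, against 7686 and 2746 CPM in WT. Collagen genes carried much of the sum, with Col3a1 at 1045 and 298.5 CPM in AUF1 total RNA, against 3357 and 426.4 CPM in WT, and Col1a2 at 1100 and 521.8 CPM in AUF1, against 2669 and 1182 CPM in WT. The blocked model called 4 of the 10 lower in total RNA and 0 higher (Cd34, Col1a2, Ly6a and Pdgfra), where 6.15% of all tested genes were called lower. By number 10 of 10 were called higher in replicate 1, where 20.8% of all tested genes were. Pdgfra, which defines muscle-resident fibroblast progenitors, was at 3.71 and 3.70 CPM in AUF1 total RNA, against 20.5 and 8.96 CPM in WT. The markers Fap, Thy1, Dpp4, Col15a1 and Tcf21 did not pass the filter and reached at most 36 counts, and between 0 and 5 of the 15 were at 0 in a library. The library with 0 at 0 was WT polysome replicate 1, whose extra genes are described above for Lum. The highest values of Thy1, Dpp4, Col15a1 and Tcf21 lay in it, and so did the polysome sum of 7686 CPM. The summed level of 8 smooth muscle markers was 13929 and 8695 CPM in AUF1 total RNA, against 6772 and 5668 CPM in WT total RNA. On polysomes it was 9970 and 9355 CPM in AUF1, against 5252 and 5507 CPM in WT. Acta2 carried most of the sum in AUF1 total replicate 1, at 11895 CPM, with Tagln at 1470 CPM. Of 7 tested, 5 were higher in AUF1 cells within both numbers in both fractions, and Mylk was lower. The planned model called 1 higher in total RNA, Cnn1, a calponin (log2 change 2.57 ± 0.37, adjusted p = 0.0439), and 0 on polysomes. The blocked model called 3 higher in each fraction (Cnn1, Lmod1 and Tagln) and 0 lower. The share of all tested genes called higher, or higher within both numbers, is not given here. Of these 8 markers, 0 to 1 were at 0 in a library. Of the myoblast and muscle markers, the planned model called the 3 with the smallest p in total RNA higher in AUF1 cells. They were Myh3 (log2 change 3.48 ± 0.45, adjusted p = 0.041), Ckm (4.46 ± 0.59, 0.041) and Acta1 (2.68 ± 0.39, 0.0439). On polysomes their adjusted p in that model was 0.0625, 0.0535 and 0.059. The part of any of these lists in the levels of the 10 genes was not tested.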

How the data were processed

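The authors deposited raw counts per gene symbol, whole numbers in 1 column per library, as the values show. Tools named in the submitters' processing notes are STAR, Bowtie, cutadapt, Trimmomatic and SAMtools, without versions, with the genome build mm10. How reads were counted per gene, on which strand and with which annotation, was not stated. Per the labels, 500 ng RNA, cleaned on Qiagen RNeasy MinElute columns, entered a NEBNext Ultra preparation. The libraries titled High, whose molecule is cytoplasmic RNA, were read as heavy polysomes, and the descriptions call the second replicate Rep3. The 5 summary lines (reads outside genes 6.04% to 7.23%, ambiguous reads 0.254% to 0.389%) were left out.

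Genes passed edgeR's filterByExpr, and libraries were scaled by TMM. The quasi-likelihood test of edgeR 4.0.16 (R 4.3.3) was fitted on all 8 libraries with 1 coefficient per group (4 residual degrees of freedom). The replicate number was added as a block in an alternative (3 residual degrees), from which the number difference comes. Tests were two-sided, adjusted over all genes tested in a comparison, and the SE was taken as log2 fold change divided by the root of F. SD is over 2 libraries. Log2 CPM used a prior count of 2, and levels per kb used merged GENCODE M21 exons. DESeq2 1.42.0 was an alternative. The procedure was run on simulated libraries drawn independently, with rises only, in well-counted genes. Falls, low counts and libraries that share a culture were not simulated, so that run says nothing about them. Counting floors are 3 counts and cover counting error only. No 2 libraries held identical counts.

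The members and the lists were chosen with earlier results of these data known. Members are named whatever their result. From each list up to 3 genes with the smallest p for genotype in total RNA and up to 2 for the number are eligible, and 5 per member for likeness. Other genes named beside counts, and Tgfbi, were chosen after their values were seen.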

Additional observations from a re-analysis of the deposited data

Results flagged for a closer look

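Fbln2 had changes with AUF1 of opposite sign in the 2 fractions, above 0 within both numbers in total RNA and below 0 within both on polysomes. The fitted log2 change was 0.19 ± 1.41 (SE) in total RNA and -0.10 ± 1.41 on polysomes. The interaction term of edgeR, which tests that difference, was -0.29 ± 1.99 (adjusted p = 1.00), so the fractions were not shown to differ.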

How the results depend on the processing

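The count of members called in AUF1 against WT total RNA was 0 in the planned fit, 6 with the replicate block, 3 in DESeq2 and 6 in DESeq2 with the block, while the calls over all genes were 134, 1730, 885 and 2364 in that order. For polysomes the planned count was 0, the blocked count 5, that of DESeq2 3 and that of DESeq2 with the block 6, which added Fn1, with 46, 1716, 856 and 2417 calls over all genes. Other size factors, library totals alone, other low-count filters and a fit on 1 fraction left both counts at 0. Over all genes the planned counts were 134 in total RNA and 46 on polysomes. They became 0 with RLE, upper quartile or library-total scaling and in the fit on 1 fraction. With no low-count filter they were 166 and 94, and with at least 10 counts in every library 112 and 57. Library totals alone also shifted the median of all genes by -0.20 in total RNA and -0.12 on polysomes, and put Fbln2 at -0.036 in total RNA. With 1 library left out and no block, the count of members says nothing about them, since no tested gene was called in any such fit. With the replicate block it ran from 2 to 6 in total RNA and from 3 to 9 on polysomes. The 9 arose without AUF1 total replicate 1 (3011 calls over all genes) and the next count, 7, without AUF1 total replicate 2 (2802). Lum, which rests on 1 library, was a call in 6 of these 8 polysome fits; without it the counts ran from 3 to 8. For polysomes against total RNA in WT the blocked count ran from 0 to 1, the 1 being Lum, without AUF1 total replicate 1 or without WT polysome replicate 2. Dcn and Mfap5 were called with the block in both fractions whichever library was left out.

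Direction changed in some fits that left out 1 library without the block. The log2 change in total RNA ran from -3.67 to 1.75 for Sparc, from -1.42 to 0.24 for Bgn, from -1.13 to 0.40 for Fn1, from -2.72 to 0.12 for Postn and from -2.25 to 2.44 for Fbln2. On polysomes it ran from -2.91 to 1.67 for Sparc, from -2.75 to 0.74 for Postn and from -1.41 to 1.16 for Fbln2. With the replicate block, Fbln2 alone changed direction, with -0.38 and -0.18 as its lowest values and 0.59 as its highest in total RNA, and a range from -0.62 to 0.40 on polysomes. Without WT total replicate 1, and no block, Sparc, Bgn, Fn1 and Postn were above 0 in total RNA. Of the alternative values of single members, 474 kept their direction and side of the threshold, 103 passed it that had not in the planned fit, and 17 changed direction; the cause was not tested. With 4 residual degrees of freedom, or 3 with the block, the median SE of a genotype change was 0.43 without the block and 0.28 with it.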
